A study of Mus musculus with 4 samples.

Results

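The cells described here are bile duct epithelial cells, or cholangiocytes, of mouse liver in recovery after diet-induced fatty liver injury. They were selected on measured transcript counts in the negative recovery library, per 10000 unique molecular identifiers (UMIs, tags that count single captured RNA molecules) of a cell. A member had at least 30 UMIs of the duct genes Spp1, Tm4sf4 and Epcam together. It had under 20 of the sinusoidal endothelial genes Clec4g, Stab2 and Ptprb, under 100 of the hepatocyte genes Alb, Apoa1 and Apoa2, and under 10 of the mesothelial genes Msln, Upk3b, Nkain4 and Lrrn4. Of 2818 kept cells of that library 375 were members, 13.3% (exact Clopper-Pearson interval at 95%, 12.1 to 14.6). A cell was kept from 1000 UMIs and 300 genes upward if no more than 20% of its UMIs were mitochondrial, and the 3 libraries with counts held 10215 such cells. The lowest duct sums among members were 48.4, 54.7 and 63.6 per 10000, the median was 225.5 and the highest 721, while the highest sum of a kept cell under the threshold was 26.3.

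Non-parenchymal liver cells were prepared from Col1a2-CreERT2; R26RtdTomato reporter mice, in which the Col1a2 promoter drives an inducible Cre that switches on a red fluorescent protein in collagen-producing mesenchymal cells. Mice received for 8 weeks a 45% fat diet that lacked methionine and choline, with 0.1% L-methionine in the water, and reporter-positive and reporter-negative cells were taken at injury and in recovery. The negative recovery library, which holds the members, is labelled Col1a2-CreERT2; R29RtdTomato, the negative injury library R28RtdTomato and the positive recovery library R27RtdTomato, while the study's design text names R26RtdTomato for all. The labels name no age, sex, strain, number of mice, length or diet of recovery, or method of parting the fractions. Each group is 1 library, so no difference below has a replicate check, no test was run, and intervals cover counting error only. The counts of the positive injury library were not analysed here.

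The negative recovery library held 3108 barcodes and 27816768 UMIs. Members had a median of 11339 UMIs (1009 to 79357), 3813 genes and 5.78% mitochondrial UMIs, against 8570 UMIs and 5.21% in the 2386 other cells, which are kept non-members with a duct sum under 10. Of the 419 kept cells with the duct sum, 44 were left out by the upper limits: 21 over the sinusoidal, 22 over the hepatocyte and 1 over the mesothelial limit. Just inside and outside the hepatocyte limit the sums were 98.6 and 100.1, and 135 members had 50 or more. No doublet caller was used, and 52 members had over 2 times the median UMIs. The library shared 3 barcodes with negative injury, 3 with positive injury and 5 with positive recovery, of which 0, 1 and 2 were members.

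Cholangiocytes line the bile ducts and alter bile by moving chloride, bicarbonate, water and bile acids across a sealed epithelium. A primary cilium on each cell senses flow, and Sox9, Notch and Yap act in the making of ducts. In injured liver, duct cells can multiply and secrete signals to stroma and leukocytes, which is called the ductular reaction. Levels below are UMIs summed over cells, scaled to 1000000 UMIs of those cells (CPM), and ratios are log2 after adding 10 CPM to both values. Because every gene of these cells counts as used by the selection, the ratios describe the members.

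All 15 genes of the duct identity list were at least 2-fold higher in members than in other cells, with a median log2 ratio of 5.51, against 10.4% of 14319 genes higher, 11.4% lower and a median of 0.01 over all genes. The list holds 3 genes of the rule, and the 12 others were all higher, with a median of 5.05. Spp1, the secreted phosphoprotein osteopontin (chromosome 5, 104435118 to 104441050, mm10), had 20363 CPM (20242 to 20486) against 38.9 in other cells. In single members it ran at 99.3, 187 and 323 UMIs per 10000 at the 10th, 50th and 90th percentile. Tm4sf4, a tetraspanin-like membrane protein, had 2640 CPM (2596 to 2684) against 4.48, and Epcam, an epithelial adhesion molecule, 1098 (1070 to 1127) against 1.604. These 3 genes chose the cells. The 3 remaining markers given for these cells were not in the rule: Sorbs2, an adaptor of actin and junctions, had 1482 CPM against 14.7, Pigr, the receptor that carries IgA across epithelium, 765 against 6.89, and Onecut2, a duct transcription factor, 630 against 0.991. After every cell was thinned to 2000 UMIs, which 363 members and 2213 cells of the sinusoidal range could supply, a UMI of Sorbs2 was seen in 90.4% of members and 1.54% of sinusoidal cells. For Onecut2 the shares were 71.6% and 0.271%, and for Pigr 68.0% and 1.58%, and median depths before thinning were 11339 and 8506 UMIs. Cells in the sinusoidal range (2255 cells, sinusoidal sum of at least 20) thus seldom held a UMI of these 3 markers, and most members did. As these markers were given for these cells, their levels describe the members and are no separate support for the label.

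Keratins 19 and 7, the usual stains for ducts, separated members less than the genes above. Krt19 had 449 CPM in members and 123 in other cells, and Krt7 214 against 53.1. In the mesothelial range (86 cells with a mesothelial sum of at least 10) they stood higher than in members, at 1649 and 710 CPM, and Bicc1 was at 748 there against 905 in members. Sox9, Epcam and Onecut2 were at 5.79, 0.643 and 1.29 CPM in those mesothelial cells.

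**Figure D1:**
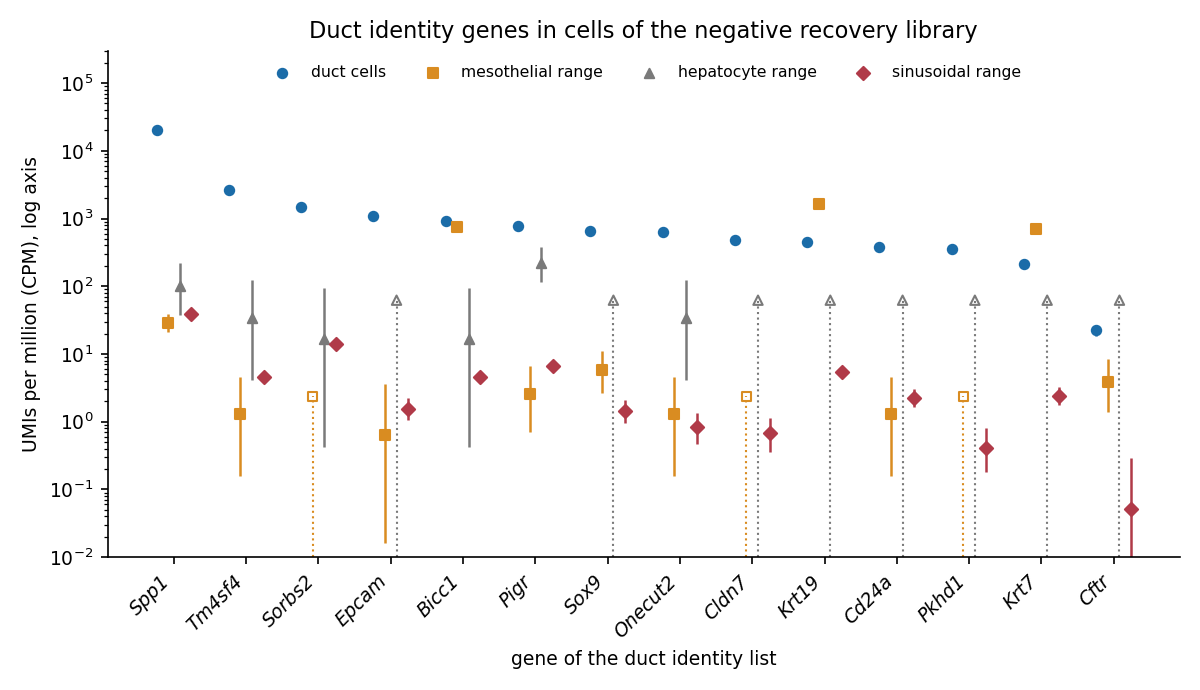
Levels of 14 of the 15 duct identity genes (x axis) in CPM on a log axis (y axis) in members, mesothelial, hepatocyte and sinusoidal ranges of the negative recovery library, with 95% Poisson intervals; open symbols on dotted lines are upper limits where no UMI was counted. Members lie highest for 12 of the genes, while Krt19 and Krt7 are higher in the mesothelial range.

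Of 15 transcription factors of duct epithelium, 13 were at least 2-fold higher in members (median 2.72) and 0 lower. Sox4 was at 1084 CPM against 104 in other cells, Sox9 at 665 (644 to 688) against 1.70, and the epithelial factor Ehf at 173 with a sinusoidal level of 0.258. Sox9 reached 1.90, 5.39 and 11.1 UMIs per 10000 in members at the 10th, 50th and 90th percentile. Nr5a2, a nuclear receptor and 1 of the 2 factors that did not reach 2-fold, had 87.0 CPM in members and 78.7 in sinusoidal cells. Hnf4a, the central hepatocyte factor, had 22.1 CPM in members (18.2 to 26.5) and 0.567 in sinusoidal cells.

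Among genes with at least 50 CPM in members and outside the rule, the 15 highest ratios began with Cp, the copper-carrying ferroxidase of plasma, at 4485 CPM (4428 to 4543) against 10.9 (log2 7.75). It was followed by Ambp, the precursor of bikunin and a lipocalin, at 1565 against 6.09, Tstd1 at 1092 against 3.02, and Clu, the secreted chaperone clusterin, at 13618 against 156. Then came Ankrd1, the tight junction claudin Cldn3 at 895 against 2.22, Sorbs2, Onecut2, Sox9, the carboxylesterase Ces1d at 1067 against 10.0, Pigr, Cldn7, the scavenger receptor Scara3 at 475 against 0.708, Atp1b1, and the cilium gene Dcdc2a at 494 against 1.32. Cp was spread over 17.4, 40.6 and 78.4 UMIs per 10000 at the 10th, 50th and 90th percentile of members.

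The barrier genes followed the same course. Of 15 epithelial junction genes 12 were at least 2-fold higher and 1 lower (median 3.44). E-cadherin, Cdh1, had 341 CPM against 1.84, and the desmosomal cadherin Dsg2 726 against 6.56. The lower gene was the scaffold Tjp1 (ZO-1), at 68.5 CPM in members and 249 in other cells, of which 2255 of 2386 were in the sinusoidal range. Of 6 keratins compared 5 were higher (median 3.18). The simple epithelial pair Krt18 and Krt8 had 2163 (2123 to 2203) and 2122 CPM (2083 to 2162) against 48.8 and 39.0, and Krt23 had 232 against 0.472.

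Of 12 secretion genes 8 were at least 2-fold higher and 1 lower (median 1.55). The sodium pump subunit Atp1b1 had 919 CPM against 10.5, and the glucose carrier Slc5a1 had 227 CPM against 0.236. Cftr and Sctr, which act in secretin-driven bicarbonate flow, were low in members and nearer to 0 elsewhere. The chloride channel Cftr had 22.3 CPM (18.4 to 26.7) against 0.330, and the secretin receptor Sctr 19.4 (15.8 to 23.6) against 0.142. Thinned to 2000 UMIs, 4.13% of members and 0% of sinusoidal cells had a Cftr UMI, so for most members its presence was not detectable at this depth. The water channel Aqp1, often described in duct cells, was at 31.0 CPM (26.4 to 36.2) in members, 4368 in the sinusoidal and 1301 in the mesothelial range.

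Of 6 bile acid genes 3 were higher and 1 lower (median 1.26). The bile salt uptake carrier Slc10a2 had 25.3 CPM against 0.0472, the basolateral exporter Abcc3 102 against 9.34, and the bile acid-induced repressor Nr0b2 50.2 against 0.472, whereas the exporter Abcc4 had 14.5 against 63.2. Of 12 genes of the cilium and of polycystic disease 4 were higher and 0 lower (median 0.34): Pkhd1, the fibrocystin gene, with 349 CPM (333 to 366) in members and 0.413 in the sinusoidal range, Bicc1, Cys1 at 63.6 against 4.44 and Nek8 at 21.5 against 2.03. Genes used by cilia of all cells, such as Ift88 and Arl13b, were at 16.4 and 37.9 CPM in members and 8.56 and 28.7 in sinusoidal cells.

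The Notch list showed no common direction (11 genes, 2 higher, 3 lower, median -0.05). Notch2, the receptor tied to duct formation, had 118 CPM in members against 8.02, and the ligand Jag1 117 against 36.1. Notch1 had 26.4 CPM against 415, the ligand Dll4 0.571 against 103, and the feedback inhibitor Nrarp was the third lower gene. The Notch target Hes1 was at 306 CPM in both.

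The Hippo list likewise ran in both directions (11 genes, 4 higher, 4 lower, median -0.57). The Yap targets Ankrd1 and Cyr61 were high, while Ctgf, another, had 213 CPM against 131 and did not reach 2-fold. Ankrd1 had 899 CPM (874 to 926) against 1.13 and Cyr61 1390 (1358 to 1422) against 164, with Tead1 and Ajuba also higher. Yap1 itself had 40.7 CPM and its relative Wwtr1 65.6, against sinusoidal levels of 66.6 and 186. Wwtr1, Lats2, Amotl1 and Crim1 were the lower genes. Promoter windows of 250 bases before the start site, from RefSeq on GRCm38.p6, were searched on both strands for GGAATG, the core bound by Tead factors. It was in 12.6% of 32851 windows and in 14.4% of 27025 genes by any window. It was in 7 of the 9 Hippo genes that had a window, which were chosen as known targets or regulators, in 1 of 9 duct identity genes and in 3 of 10 of the genes that led in members. The windows of Ankrd1 and Cyr61 (Ccn1 in RefSeq) are shown because both genes were high and varied together among members, with the core or its reverse complement in capitals. Spearman's rho was 0.34 for this pair, and 0.49 for Cyr61 and the immediate-early gene Atf3. Ankrd1 lies at chr19:36119845-36120094, minus strand, with matches at -210 and -123, and Cyr61 at chr3:145649986-145650235, minus strand, with 1 match at -103 on the opposite strand.
Ankrd1: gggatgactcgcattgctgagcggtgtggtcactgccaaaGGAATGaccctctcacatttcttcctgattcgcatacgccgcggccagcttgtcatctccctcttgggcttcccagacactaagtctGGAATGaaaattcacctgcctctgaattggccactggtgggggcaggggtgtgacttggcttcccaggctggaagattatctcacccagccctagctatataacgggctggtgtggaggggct
Cyr61: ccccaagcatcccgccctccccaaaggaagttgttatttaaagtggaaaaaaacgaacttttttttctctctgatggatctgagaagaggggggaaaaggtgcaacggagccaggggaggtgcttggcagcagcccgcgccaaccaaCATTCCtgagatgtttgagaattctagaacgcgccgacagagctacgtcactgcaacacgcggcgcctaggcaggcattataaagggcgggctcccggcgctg

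Genes by which ducts signal to stroma were higher in members more often than not. Of 15 fibrogenic ligands and activators 9 were at least 2-fold higher and 2 lower (median 1.23). Pdgfc, a growth factor for mesenchymal cells, had 166 CPM against 0.566, Pdgfa 142 against 18.2, and Vegfa 239 against 17.4. The integrin chains that release active TGF-beta, Itgb6 and Itgb8, had 35.8 and 81.1 CPM against 0.189 and 1.09. The lower genes were Tgfb1 itself, at 7.23 CPM (5.12 to 9.92) in members against 230, and endothelin, Edn1. Of 13 ductular reaction genes 7 were higher and 2 lower (median 1.01), with Lcn2, an iron-siderophore binder, at 287 CPM against 1.79, the Tweak receptor Tnfrsf12a at 238 against 5.66 and the apical protein Prom1 at 200 against 0.330. Vim, the mesenchymal filament gene, had 8.18 CPM in members and 354 in sinusoidal cells.

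Immune genes gave less contrast. Of 13 cytokines 3 were higher and 4 lower (median 0.07): Cxcl1, Cxcl5 and Cx3cl1 against Cxcl10, Cxcl16, Il33 and Csf1. Cxcl1 had 129 CPM against 29.7, and Cxcl10 13.3 against 307. Of 13 antigen presentation genes 3 were higher and 1 lower (median 0.14). The higher ones belong to class II, with Cd74 at 206 CPM against 68.6 and H2-Ab1 at 68.9 against 13.4, beside H2-Eb1, and the lower one was B2m, the class I light chain. Of 13 interferon response genes 0 were higher and 2 lower (Bst2 and Rsad2, median -0.37). Of 9 acute-phase genes Cp and Lcn2 were higher and Lrg1 lower (median -0.03), and the complement gene C3 was at 629 CPM in members and 704 in other cells.

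Of 17 basement membrane genes 6 were higher and 4 lower (median 0.25). Epithelial chains were on the higher side (among them Lamb3, Col18a1, Agrn, Itga3 and Itgb4), and Col4a1, Col4a2, Hspg2 and Nid1, which endothelial cells make, on the lower. Col18a1 had 85.6 CPM against 3.02, and Nid1 1.52 against a sinusoidal 297. The mucin Muc1 and the trefoil peptide Tff2 had 133 and 39.8 CPM, with 0 counts of Tff2 in other cells. Of the 10 tuft cell markers 7 had no count in members, among them the defining Trpm5 and Pou2f3, and Dclk1 had 7.04 CPM. Of 15 immediate-early and heat-shock genes 5 were higher (Atf3, Klf6, Ier2, Btg2 and Egr1) and 0 lower (median 0.61), with Atf3, a stress-induced factor, at 1892 CPM against 180 and Klf6 at 1458 against 386. Of 11 proliferation genes 0 were higher and 0 lower (median 0.01): Mki67 had 0.571 CPM (0.118 to 1.67), Top2a 0.761 and Ccnb1 0 counts, which allows up to 0.571 CPM at the 3-count floor.

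Members carried much RNA of albumin and of some other plasma proteins, with little of several other hepatocyte genes. Alb (chromosome 5, 90460897 to 90476602, mm10) had 4575 CPM (4518 to 4634) in members, 68.9 in the sinusoidal and 12421.5 in the hepatocyte range (19 cells with a hepatocyte sum of at least 100). It lay at 16.4, 41.8 and 74.4 UMIs per 10000 at the 10th, 50th and 90th percentile of members, and thinned to 2000 UMIs it was seen in 98.1% of members and 13.2% of sinusoidal cells. Apoa1 and Apoa2 together came to 0.395 UMIs per 100 of Alb in members, 38.1 in the sinusoidal and 120 in the hepatocyte range. Apoc3, Fgb and Serpina1a, further liver secretory genes, had 5.71, 3.81 and 4.76 CPM in members, against 5.47, 4.64 and 6.55 in sinusoidal and 4219, 692 and 4574 in hepatocyte-range cells. Other liver secretory genes were not as low, as read in the groups of members described below. Fgg had 44.5 CPM in group 3 and 147 in the other members, and Serpina1c 100 and 151. Vtn had 82.2 and 253 CPM, and Ahsg 75.6 and 652. The urea cycle gene Cps1 and the cytochromes Cyp2e1 and Cyp3a11 were under 1 CPM in members. Ttr, Apoc1 and Trf, carriers of thyroid hormone, lipid and iron, went with albumin, at 1778, 1733 and 771 CPM in members and 12.8, 13.8 and 17.2 in sinusoidal cells. The 16 hepatocyte markers thus split: Alb, Ttr, Apoc1, Trf and Hnf4a were at least 2-fold higher in members than in other cells, Apoa2 and Serpina1a lower, and the median was -0.24.

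The rule caps Alb in members, so the cells it removed were read too. The 22 cells left out by the hepatocyte limit alone had 12095 CPM of Alb (11681 to 12520), but 0.248 UMIs of Apoa1 and Apoa2 per 100 of Alb. All 22 had under 10 per 10000 of the pair, 16 of them 0 and the highest 2.09, while the lowest hepatocyte-range cell had 29.2. These cells had passed the duct sum, and of the genes outside the rule they had Sox9 at 713 CPM, against 665 in members. Among members 296 of 375 had no UMI of the pair, and the highest had 4.56. At injury the same ratio was 0.889 in duct cells, 12.7 in the 247 cells lost to that limit alone and 79.9 in the hepatocyte range.

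**Figure D2:**
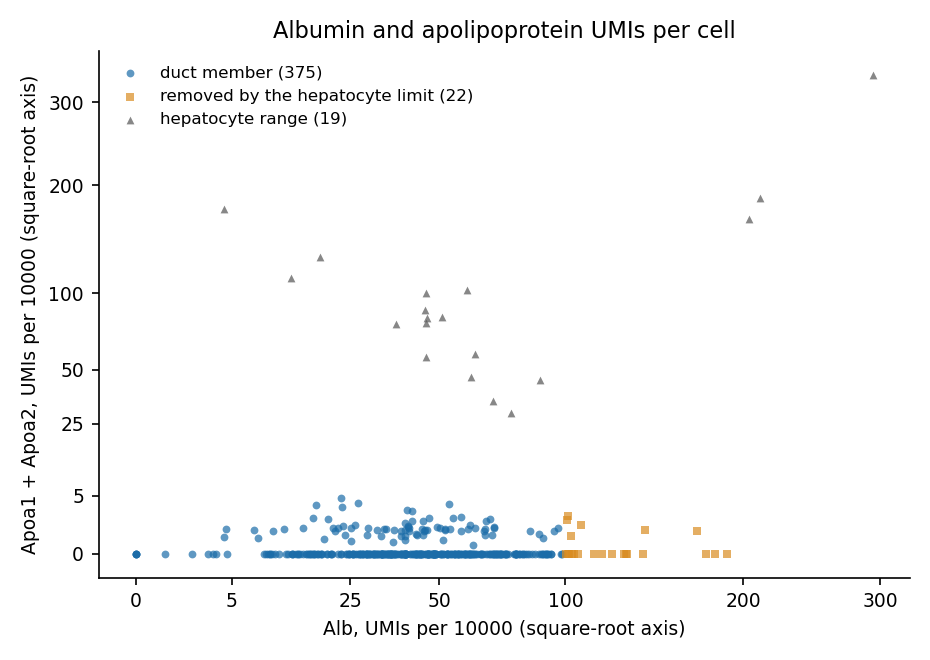
Each point is a cell of the negative recovery library: Alb (x axis) against Apoa1 plus Apoa2 (y axis), both in UMIs per 10000 on square-root axes, for 375 members, the 22 cells removed by the hepatocyte limit and 19 hepatocyte-range cells. Members and removed cells form 1 band at the foot of the plot, up to 4.56 on the y axis, and hepatocyte-range cells start at 29.2.

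Markers of other cell types were low in members. The 13 sinusoidal markers, all counted, summed to 208 CPM in members and 25956 in the sinusoidal range, and per member they had a median of 1.15 and a highest value of 110 UMIs per 10000. The 3 genes among them that the rule capped, and that define the range, set part of this contrast, and the 10 others summed to 138 CPM in members and 16520 in the range. The 8 vascular endothelial markers summed to 34.4 CPM against 2476 in the sinusoidal range. The 10 mesothelial markers summed to 102 CPM (7586 in the mesothelial range) with Upk1b and Bnc1 at 0, and 87.3 of this was Gpm6a, a neuronal-type membrane glycoprotein. Without the 4 genes of the rule the sums were 89.2 and 3272 CPM. The 11 stellate and fibroblast markers summed to 22.1 CPM (9102 in the mesothelial range), with Lrat, Des, Col1a2, Lum, Pdgfrb and Acta2 at 0. Of 12 leukocyte markers 10 were at 0, the pan-leukocyte gene Ptprc among them. Csf1r, the receptor for the macrophage growth factor, made up most of the rest, at 40.7 CPM (35.4 to 46.6) in members and 0.309 in sinusoidal cells. The part of free RNA and doublets in these low values was not tested.

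By variance over mean, stress-response, secretory and mitochondrial genes were among those that differed most between members. After thinning to 2000 UMIs, 112 of 3477 genes with a mean of at least 0.1 had a variance of at least 1.5 times the mean (3.22%), where counting alone gives about 1, and the median was 1.02. The 15 highest were Gm42418, the nuclear RNA Malat1, Msmp, Spp1, Apoe, Ahsg, Ankrd1, mt-Co1, mt-Co3, the metallothionein Mt1, Jun, Atf3, Fos, mt-Atp6 and mt-Nd5. Gm42418 and Malat1, at 31.8 and 15.4, are noncoding. Msmp, at 12.9, was seen in 26 of 363 cells, with up to 33 of 2000 UMIs in 1 cell. Ahsg, the plasma glycoprotein fetuin-A, at 6.17, was seen in 34.4% of cells and ran from 0 at the 10th to 17.97 UMIs per 10000 at the 90th percentile. Ankrd1, at 5.73, was seen in 50.7% of cells and ran from 0 to 27.3. For both genes, then, the mean covers cells with many UMIs and cells in which none was counted. Whether these form distinct kinds of cells was not tested.

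By list, all 15 immediate-early and heat-shock genes passed 1.5 (median 2.38), as did 4 of 4 hepatocyte genes that were high enough to read, 4 of 5 keratins, 3 of 4 acute-phase genes and 6 of 14 duct identity genes. None of 13 junction, 7 secretion, 6 cilium and 7 basement membrane genes did, and 1 of 11 transcription factors. Over all 3477 genes 3.22% passed, so such low counts in lists this small are no result about those lists. For the same relative spread, variance over mean rises with the mean count, so a fixed limit of 1.5 favours genes of high level. The part of level in these differences between lists was not tested. Some pairs of genes of the same kind varied together across the 363 thinned cells, which share 1 library. Spearman's rho was 0.60 for Atf3 and Fos, 0.56 for Jun and Fos, and 0.34 for Ankrd1 and Cyr61. It was 0.32 for Krt8 and Krt18, and 0.25 for Ahsg and Alb. Other like pairs were weaker, at 0.11 for Krt8 and Krt19 and 0.06 for Spp1 and Epcam. Cyr61, of the Hippo list, also varied with immediate-early genes, at 0.49 with Atf3, 0.34 with Fos and 0.31 with Jun. For Spp1 and Apoe rho was 0.35.

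**Figure D3:**
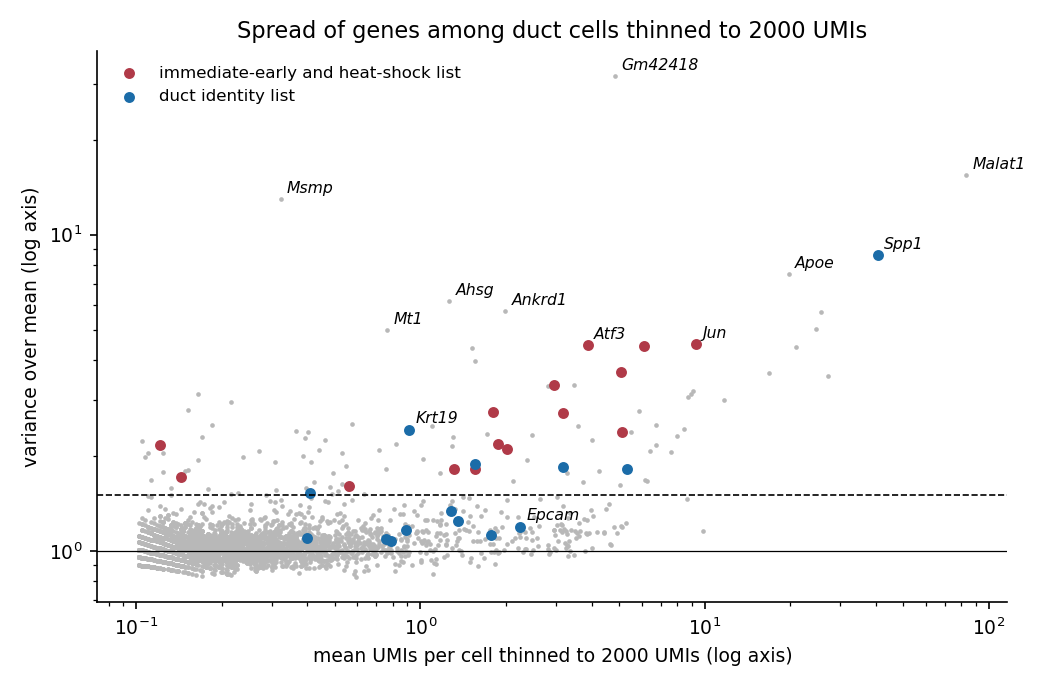
Each point is 1 of 3477 genes in 363 members thinned to 2000 UMIs: mean UMIs per cell (x axis, log) against variance over mean (y axis, log), with a line at 1 and a dashed line at 1.5. The 15 immediate-early genes (red) all lie above 1.5, Spp1 reaches 8.63, and Epcam lies near 1.

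To describe subsets, the UMIs of each member were divided at random into 2 sets, cells were clustered on the first without the genes of the rule, and levels were read in the second. This gave 4 groups, kept by number because all are duct cells: 102 cells (group 0), 48 (group 1), 178 (group 2) and 47 (group 3). Epcam differed little between each group and the other members (log2 ratios of 0.04, 0.10, -0.04 and -0.02). Of the 15 identity genes 0 differed 2-fold in groups 0, 1 and 2, and in group 3 there were 3 higher (Krt19, Krt7 and Cftr) and 1 lower (Pigr). Of all 10951 genes 10 were higher and 56 lower in group 0, 259 and 704 in group 1, 13 and 36 in group 2, and 154 and 111 in group 3. With so few calls over all genes, 0 of 15 is no result about the identity genes. Groups 1 and 3 were found whole at a clustering resolution of 1, where 100% of the cells of each lay in 1 cluster. At a resolution of 0.25 group 1 was merged into a cluster of 136 cells, of which it made up 35.3%, and the best match of group 3 held 70.2% of it. With another random division the best match held 61.8%, 89.6%, 56.2% and 61.7% of groups 0 to 3.

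Group 3 stood out by genes of the ductular reaction. Of 11 such genes 7 were at least 2-fold higher than in the other members, of 14 fibrogenic genes 6, of 11 cytokines 5 and of 6 keratins 3, against 1.41% of 10951 genes. Its 5 leading genes were Sprr1a, a cornified envelope precursor, at 138 CPM with 0 counts in other members, the Wnt enhancer Rspo3 at 109 against 0.459, the calcium binder S100a6 at 409 against 38.1, Basp1 at 333 against 42.7, and the annexin Anxa3 at 758 (680 to 843) against 108. The matrix protease Mmp7 had 218 CPM against 43.6, Tgfb2 298 against 62.9, the chemokine Cxcl16 329 against 42.7, Cldn4 222 against 52.8, Krt19 900 against 365, Krt7 418 against 172 and Ankrd1 1961 against 689. The secretory genes were lower in the same cells: Ahsg had 75.6 CPM against 652, Pigr 285 against 857 and Alb 2472 against 5044, and 4 of 11 hepatocyte markers (Alb, Ttr, Apoc1 and Trf) were at least 2-fold lower, against 1.01% of all genes. Group 3 had a median of 14005 UMIs and 5.51% mitochondrial UMIs, and the part of depth was not tested. Of 5 vascular endothelial markers 2 were higher in it (Vwf at 57.8 CPM against 0.459 and Plvap at 15.6 against 1.84, list median 0.86), and of 3 mesothelial markers 1 (Msln at 17.8 against 1.38). Of 12 sinusoidal markers 0 were higher and 2 lower. The part of such cells in group 3 was not tested. This holds also for the level of Rspo3, which central vein endothelial cells can express.

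Immediate-early genes differed in each of the other 3 groups. In group 2, 5 of 15 such genes were at least 2-fold higher (median 0.91), against 0.119% of all genes. Its leading 5 were Atf3 at 2851 CPM (2757 to 2947) against 1043, Btg2, Ahsg at 794 against 342, Klf6 and Zfp36. In group 0, 8 of 15 were lower (median -1.14), against 0.511% of all genes, and its leading 5 were Msmp at 370 CPM against 84.5, the plasma proteins Vtn, Serpina1c and Fgg, and C2cd4b. Of 12 sinusoidal markers 2 were higher in group 0 (Dnase1l3 at 41.1 CPM against 12.1 and Bmp2 at 23.6 against 6.03, list median 0.41), against 0.0913% of all genes, and their part in the group was not tested. In group 1, 15 of 15 were lower (median -2.71), against 6.43% of all genes, with Atf3 at 41.2 CPM (15.1 to 89.7) against 1996 and Fos at 213 against 3284. Group 1 had the lowest depth, a median of 5017 UMIs, and the highest mitochondrial share, 7.65%. Among its leading genes were 2900060B14Rik, Hist1h4d, B930036N10Rik and mt-Atp8, with mt-Nd5 at 2453 CPM against 456 and Gm42418 at 4769 against 1736. Whether depth or RNA quality made this group was not tested.

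**Figure D4:**
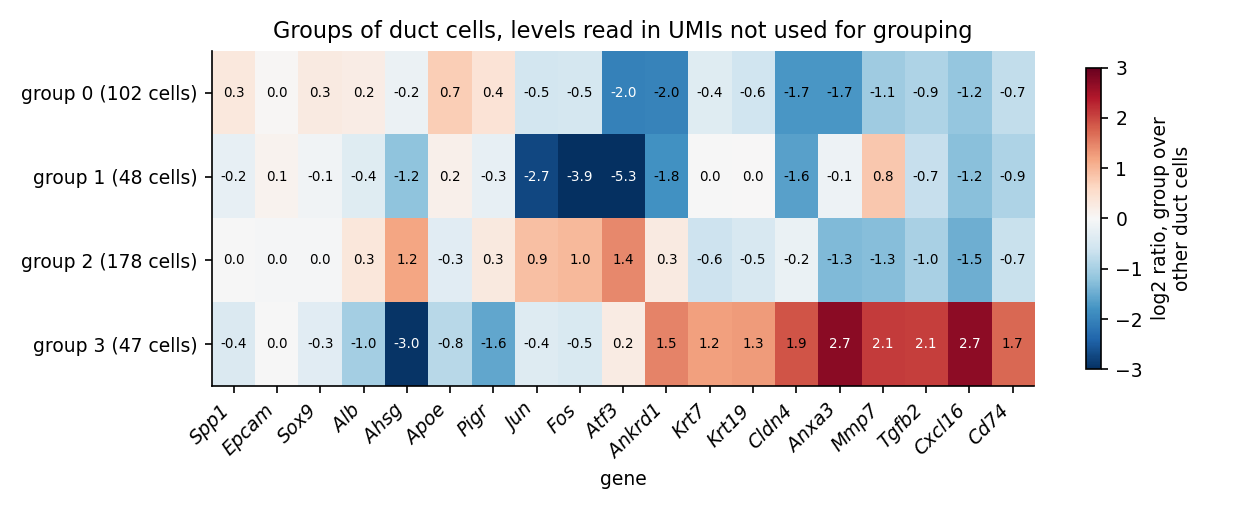
Rows are the 4 groups, columns genes, and colours and numbers the log2 ratio of each group over the other members (10 CPM added, UMIs not used for grouping). Atf3, Jun and Fos are lowest in group 1, Anxa3, Cxcl16, Mmp7 and Tgfb2 are highest in group 3, and Epcam is near 0 in all.

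The same rule in the negative injury library gave 842 duct cells of 5271 kept cells, 16.0% (14.995 to 16.992), with a median of 15380.5 UMIs. Stage, mice and library cannot be told apart here. Between recovery and injury duct cells 0.639% of 13625 genes were at least 2-fold higher in recovery and 1.59% lower, with a median of 0.04. In sinusoidal-range cells of the same libraries the shares were 0.499% and 1.65%, with a median of 0.09. Of 15 duct identity genes Pigr (765 against 316 CPM) and Pkhd1 (349 against 166) were higher, a larger share than over all genes, and 0 lower. Of 15 transcription factors 0 differed 2-fold, which is near the shares over all genes and so is no result about these lists. Without the 3 genes of the rule, 2 of the 12 other duct identity genes were higher and 0 lower (median 0.21). Sox9 had 665 CPM in recovery and 562 at injury, Cldn7 480 and 531, and Sorbs2 1482 and 778. Among secretion genes Slc5a1 was the only one of 12 to differ 2-fold, at 227 against 100 CPM.

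All 13 interferon response genes were at least 2-fold lower in recovery duct cells (median -3.10). Ifi27l2a (chromosome 12, 103442167 to 103443680, mm10) had 18.5 CPM (14.97 to 22.5) in recovery and 1634 (1613 to 1656) at injury, and Irf7, a factor that drives type I interferon, 25.9 and 589. Isg15, a ubiquitin-like modifier, had 54.2 and 798, and Bst2 100.1 and 932. In the sinusoidal range 12 of the 13 were lower as well (median -2.22), with Irf7 at 20.1 and 578 CPM, so the lower level was not particular to duct cells. Recovery members that held any Irf7 UMI after thinning were 4.96% of the total.

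Among ductular reaction genes 6 of 13 were lower in recovery and 0 higher (median -0.71), against 2 of 10 in the sinusoidal range. Mmp7 (chromosome 9, 7692090 to 7699585, mm10) had 75.9 CPM (68.7 to 83.8) in recovery and 1509 (1488 to 1530) at injury, and Lcn2 287 (272 to 301) and 4131 (4097 to 4165). In sinusoidal cells both were far lower at either stage, at 0.0516 and 6.28 CPM for Mmp7 and 0.825 and 27.3 for Lcn2. With 10 CPM added, Mmp7 could not count as 2-fold lower there. Vcam1, Cd44 and Vim were among the other lower genes. Prom1 had 200 and 133 CPM and Tnfrsf12a 238 and 330. These 2 genes of the list thus stayed under 2-fold.

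Chemokines and acute-phase genes were lower too. Of 12 cytokines 7 were lower and 0 higher (median -1.15; 5 of 11 lower in sinusoidal cells), with the monocyte attractant Ccl2 at 13.7 CPM (10.7 to 17.3) against 262, the neutrophil attractants Cxcl5 at 12.2 against 161 and Cxcl2 at 15.03 against 100.2, and Tnf at 7.23 against 62.9. Of 8 acute-phase genes 5 were lower (median -1.18): Lcn2, C3 at 629 against 1422 CPM, Cfb, Hp and Lrg1. Cp went the other way without reaching 2-fold, at 4485 against 2289 CPM (log2 0.97). Of 13 antigen presentation genes H2-D1, B2m and Tap1 were lower, with B2m at 821 against 2076 CPM. The higher gene was the class II chain H2-Eb1, at 31.4 CPM (26.8 to 36.6) against 1.63 (1.02 to 2.47), while its companion H2-Ab1 had 68.9 CPM in recovery against 82.6.

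Genes of mitosis were near 0 in recovery. Of 14 proliferation genes 7 were at least 2-fold lower and 0 higher (median -0.92), against 0 lower and 1 higher of 14 in sinusoidal cells: Cenpf had 0.190 CPM (0.00482 to 1.06) against 31.5 (28.6 to 34.6), Ube2c 0.571 against 24.6, Top2a 0.761 against 23.7, and Mki67 0.571 against 19.3, beside Ccnb2, Cdk1 and Birc5. With 10 CPM added, a gene under 10 CPM at injury cannot come out 2-fold lower. In the other cells of the injury library Cenpf had 9.59 CPM, Mki67 8.46 and Top2a 7.99. The sinusoidal count is limited by such levels, so it cannot show whether the lower level was particular to duct cells. In duct cells Pcna, which is also used in repair, had 45.7 and 42.0 CPM, and the cyclin Ccnd1 286 and 368. Markers of other cell types moved with stage as well. In duct cells 4 of 16 hepatocyte markers were lower in recovery (Apoa1 4.76 against 25.5 CPM, Serpina1a, Trf and Fgb), and the 16 summed to 8943 and 10199 CPM with none at 0, from 0 to 258 UMIs per 10000 in single recovery cells and from 2.55 to 311 at injury. Sinusoidal markers summed to 208 and 315 CPM, stellate and fibroblast markers to 22.1 and 60.3, and leukocyte markers to 44.5 and 18.8. Most of the leukocyte sum was Csf1r at both stages (15.4 CPM at injury), and Ptprc had no count at either. Their part in the differences between stages, and that of depth, was not tested.

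The 10 lowest ratios among genes with at least 50 CPM at either stage were those of Ifi27l2a, Mmp7, Irf7, Ifit3, Lcn2, Isg15, Ccl2, Ly6d, Ifit3b and Rsad2. The 10 highest were Rnaset2b, Ces1c, Gm26802, Smim5, Msmp, Adam33, Clec2d, Insig1, Fxyd1 and Idi1. Rnaset2b, a ribonuclease, had 99.9 CPM (91.5 to 109) against 4.16 (3.14 to 5.40), and in the sinusoidal range 54.9 against 1.87, a like ratio in an unrelated cell type (log2 2.96 and 2.45). The carboxylesterase Ces1c had 172 CPM against 27.0 and the sodium pump regulator Fxyd1 243 against 59.5, and both were under 2 CPM in sinusoidal cells at both stages. Msmp had 165 CPM against 32.7, a difference carried in recovery by 26 of 363 thinned cells.

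**Figure D5:**
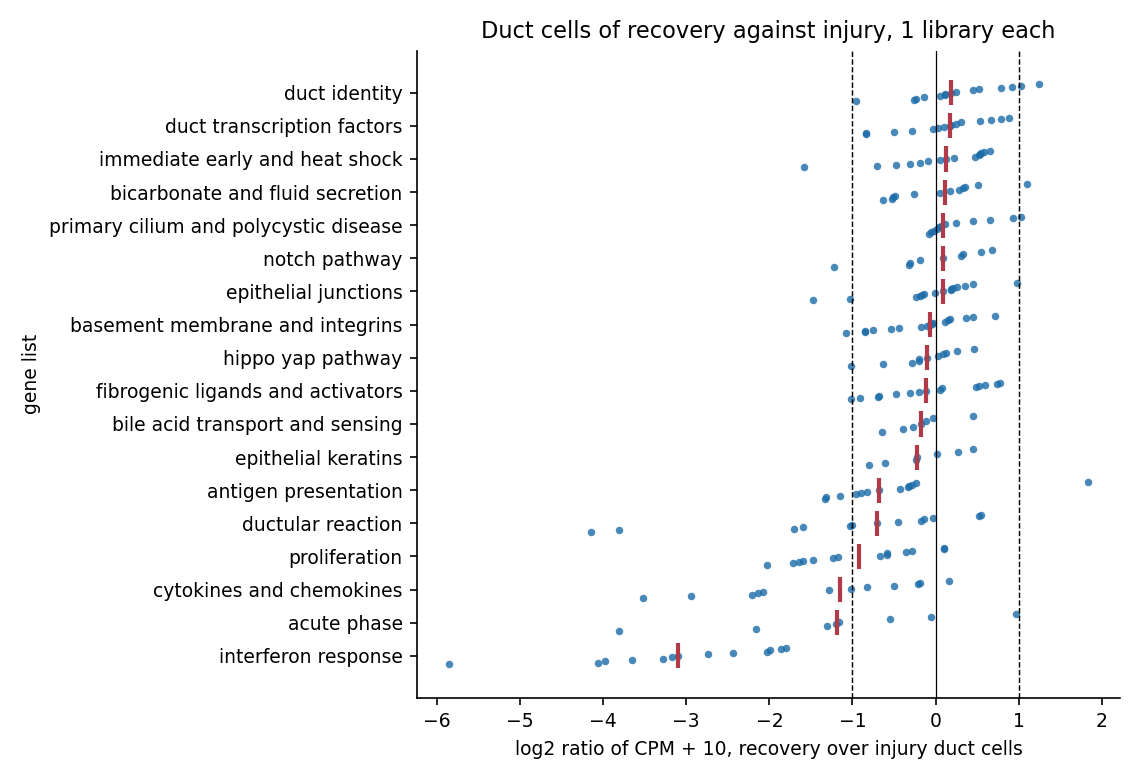
Each point is a gene of the list named on the y axis, placed by its log2 ratio of recovery over injury duct cells (x axis, 10 CPM added, 1 library per stage), with list medians as red bars and dashed lines at 2-fold. Interferon response genes all lie left of the dashed line at -1 (median -3.10), and duct identity genes lie around 0 (median 0.18).

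In the positive recovery library the rule gave 20 duct cells of 2126, 0.941% (0.576 to 1.45), with a median of 11247.5 UMIs. Duct genes and albumin lay near the members' levels: Spp1 had 19557 CPM (18975 to 20152), Epcam 943, Sox9 673, Cp 4879 and Alb 4485 (4209 to 4775), with 0.408 UMIs of Apoa1 and Apoa2 per 100 of Alb. Stellate and fibroblast markers summed to 444 CPM in these 20 cells and 22.1 in the members of the negative library, with Dcn, the matrix proteoglycan decorin, at 339 and 3.23, and Lrat, Des and Col1a2 at 0. The part of RNA from other cells in these values was not tested.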

How the data were processed

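The authors deposited counts: 10x Genomics matrices of UMIs per gene (31053 features) and barcode, 1 per library, whose headers carry software version 3.1.0. Per the labels' protocols, each mouse liver was perfused with Pronase (14 mg) and Collagenase (3.7 U), and a Nycodenz gradient enriched the cells. The submitters' processing notes list the builds mm10 and GRCh38 and the tool featureCounts 1.6.2. No header or label read here states the aligner or the rule for calling cells. Coordinates of genes are those of GENCODE release M21.

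Counts were summed over cells, scaled to CPM and compared as log2 ratios with 10 CPM added, for genes with at least 10 counts in both groups together. Called means at least 2-fold. Intervals at 95% are exact Poisson (levels) and Clopper-Pearson (shares). Cells were thinned to 2000 UMIs for shares and spread, which left out 12 of 375 members. Clustering used scanpy 1.11.5 (1000 variable genes, 15 components, 15 neighbours, Leiden resolution 0.5, seed 7). The scripts were checked on simulated data. edgeR 4.0.16 gave TMM factors (trimmed mean scaling), as an alternative. They move log2 ratios by -0.178 (members over other cells) and -0.099 (recovery over injury). No test was run, with 1 library per group.

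Members and the 26 gene lists (309 symbols, all found) were chosen with earlier results of these data known, and the motif after values were seen. Named genes are the given markers, the 3 highest of each list, list genes past 2-fold where few, the 15 highest ratios and variances, the 10 highest and lowest stage ratios, and 5 per group of cells. Where others are named, they were chosen after their values were seen. Results that rest on some withheld genes are not reported here.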

Additional observations from a re-analysis of the deposited data

How the results depend on the processing

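Each choice was changed alone. With the upper limits halved 233 cells were members, and with no upper limits 419, against 375. Genes at least 2-fold higher in members than in other cells numbered 1484, and 2995 and 506 with 1 and 50 CPM added in place of 10; with 50 CPM added, 6 of the 26 lists had a median past 2-fold, against 12. For recovery over injury, 87 genes were higher and 216 lower, with 498 and 726 at 1 CPM and 20 and 75 at 50 CPM added. Thinned to 1000 and 4000 UMIs, 61 of 1664 and 192 of 6072 genes had a variance of at least 1.5 times the mean, against 112 of 3477, as depth sets which genes can be read. Clustering at resolution 1 gave 8 groups against 4, at resolution 0.25 it gave 3, and with another random division 5. Of the single-gene ratios and spreads of listed and named genes under these alternatives, 6233 stayed on their side of 2-fold, or of a variance of 1.5 times the mean, 268 crossed it, and 3 that were past it changed sign. Nkain4 and Wt1 were at 0.32 and 0.012 when members were set against the sinusoidal range alone, and Dcn at 0.54 for recovery over injury without upper limits, an alternative chosen after seeing the data. The causes were not tested. No paired analysis was possible because each group has 1 library, and for the same reason no replicate could be left out.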

Other observations

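Genes of cholesterol synthesis and uptake, a list of 23 chosen after the highest stage ratios were seen to hold Insig1 and Idi1, were at least 2-fold higher in recovery duct cells for 9 members and lower for 0, with a median log2 ratio of 0.79. In the sinusoidal range of the same libraries 1 of 23 was higher and 0 lower, with a median of 0.31. Hmgcs1, which makes the precursor of mevalonate, had 210 CPM (198 to 223) in recovery duct cells and 57.4 (53.4 to 61.6) at injury, against 38.8 and 29.4 in sinusoidal cells. Sqle, the squalene epoxidase, had 119 CPM and 37.6 in duct cells, and 1.599 and 0.774 in sinusoidal cells. With 10 CPM added, genes this low cannot come out 2-fold higher, which limits the sinusoidal count. The synthesis regulator Srebf2 had 91.3 and 50.7 CPM in duct cells (log2 0.74). As 1 library stands for each stage and the list was picked on these values, this is a description. Recovery duct cells of the positive library had 334 CPM of Hmgcs1 and 142 of Sqle.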
